A study of Rattus norvegicus with 16 samples.

Results

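The cytosolic ribosomal protein genes are the set described here, in liver RNA of 16 male Fischer F344 rats. Members were the probe sets whose platform annotation gave 1 gene symbol of the Rpl or Rps type, or Rplp0 or Rpsa, with the Rps6k kinases left out. The rule found 60 of the 8740 probe sets on the array, for 41 of the 4736 genes with such a symbol. Of these, 57 probe sets of 40 genes passed a filter on low values and were tested, against 5323 probe sets tested in all. Both probe sets of Rpl3l and 1 of the 4 of Rpl21 did not pass it. Rplp1 and Rplp2, the partners of Rplp0 in the ribosomal stalk, had no probe set with 1 symbol.

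The study compared 3 dithiolethiones with a sugar vehicle at a single matched dose. D3T is 3H-1,2-dithiole-3-thione, the unsubstituted ring. OLT is oltipraz, which carries a methyl and a pyrazinyl group on that ring, and TBD carries a tert-butyl group. Each compound group held 4 rats that were gavaged with 0.3 mmol/kg on alternate days, 3 doses over 5 days, and killed 24 h after the third dose. The vehicle group held 4 rats that received saturated sucrose by the protocol, although the sample titles call them untreated. The rats of all 4 groups were 6 weeks old on arrival, were singly housed on the same purified diet and were assigned to groups at random, so each array is 1 animal. Expression was given as log2 GCRMA values, in which 1 unit is a doubling of the array signal.

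The cytosolic ribosome joins a small subunit, which reads the mRNA, to a large subunit, which forms the peptide bond, and each holds ribosomal RNA and a fixed set of proteins made in matched amounts. Mammalian ribosomal protein mRNAs begin with a run of pyrimidines at the cap, the terminal oligopyrimidine tract, through which mTOR signalling controls their translation. In liver these mRNAs are abundant, and the secretory output of hepatocytes depends on the ribosomes they supply.

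The sequences around the annotated transcription starts are shown for the members on which the results below turn most, to set their pyrimidine runs side by side. RefSeq promoter entries on build GRCr8 were found for 36 of the 41 genes, and each window holds 25 bases before the start and 25 bases from it. Capitals mark the longest run of C and T, and base 26 is the annotated start. Rps24, Rplp0, Rpl35 and Rps15 have a run that crosses the annotated start, whereas the longest runs of Rpsa and Rpl6 end before it and lie off the start. Rpl4, chosen after its values were seen, is shown because it has a long run and none of its comparisons passed the test.
Rps24: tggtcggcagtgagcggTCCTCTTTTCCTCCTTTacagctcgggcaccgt
Rplp0: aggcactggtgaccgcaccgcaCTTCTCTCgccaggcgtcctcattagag
Rpl35: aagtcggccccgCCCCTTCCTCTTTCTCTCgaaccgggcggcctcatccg
Rps15: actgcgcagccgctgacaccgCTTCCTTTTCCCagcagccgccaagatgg
Rpsa: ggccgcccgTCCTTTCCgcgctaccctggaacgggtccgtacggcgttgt
Rpl6: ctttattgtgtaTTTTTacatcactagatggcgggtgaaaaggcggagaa
Rpl4: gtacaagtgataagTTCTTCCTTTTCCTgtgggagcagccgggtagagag

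The Rps24 window lies at chr16:96492-96541 on the plus strand, the Rpsa window at chr8:128728854-128728903 on the plus strand and the Rpl4 window at chr8:73566452-73566501 on the plus strand. On the minus strand lie Rplp0 at chr12:46718366-46718415, Rpl6 at chr12:41011666-41011715, Rpl35 at chr3:43165897-43165946 and Rps15 at chr7:10068091-10068140. The Rpl6 window lies inside the annotated bounds of the gene, chr12:41008142-41012756. The windows of Rps24, Rpl35, Rps15 and Rpsa also lie inside their gene bounds. Whether the starts shown for these genes are those used in liver was not tested. Of the 36 member windows, 27 (75.0%) held a C/T run of at least 8 bases, against 19.4% of the 33469 windows of all RefSeq promoter entries. The median longest run was 11.5 bases in members and 5 bases in all entries. The motif CTTTCC, searched on both strands, was in 13 member windows (36.1%) and in 4.4% of all windows. In the windows shown, the longest run was 17 bases in Rps24, 8 in Rplp0 and 5 in Rpl6, each with a member probe set that rose. For Rps24, a partner probe set from the same deposited sequence did not rise, as described below. The longest run was 14 bases in Rpl4. Rpl4 differed from vehicle by 0.11 in D3T livers, 0.02 in OLT livers and 0.07 in TBD livers, none past the test. Rpl4 was picked for its long run and its lack of calls, so this contrast was fixed in advance and shows nothing about run length. Whether run length goes with the response was not tested. Rpl27, Rpl19l4, Rpl30, Rps9 and Rps29 are named without a window.

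More ribosomal protein probe sets rose than fell with each of the 3 compounds. In D3T livers 19 of 57 probe sets rose, of 16 genes, against 6.18% of all probe sets tested (limma, Benjamini-Hochberg adjusted p under 0.05). In OLT livers 9 of 57 rose, of 8 genes, against 3.38% of all tested, and in TBD livers 12 of 57 rose, of 10 genes, against 3.55% of all tested. The members that rose made up 33.3%, 15.8% and 21.1% of the members tested with D3T, OLT and TBD. Each compound also had 1 member that fell, where 12.2% of all tested probe sets fell with D3T, 7.89% with OLT and 9.47% with TBD. The 3 comparisons share the same vehicle animals. The shares depended on the scaling: with array medians centred 12 members rose with D3T, against 9.64% of all probe sets tested, and after repeated quantile normalization 25, against 12.6%.

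The called rises were mostly modest. Their median was 1.74-fold with D3T, 1.53-fold with OLT and 1.72-fold with TBD, and they ran on the log2 scale from 0.39 to 2.63, from 0.49 to 2.93 and from 0.39 to 3.16. Over all 57 members, rising or not, the median log2 difference was 0.36 with D3T, 0.18 with OLT and 0.25 with TBD, whereas the median of all probe sets tested was 0.04, -0.03 and -0.02. Members above 0 numbered 45 with D3T, 39 with OLT and 44 with TBD. In D3T livers all 4 arrays lay above all 4 vehicle arrays for 28 members (49.1%), against 9.07% of all probe sets tested. The same held for 13 members in OLT livers (22.8%, against 4.88% of all tested) and 14 in TBD livers (24.6%, against 3.98%). Both subunits contributed: with D3T 13 of 39 large-subunit and 6 of 18 small-subunit probe sets rose, with OLT 6 and 3, and with TBD 8 and 4.

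**Figure D1:**
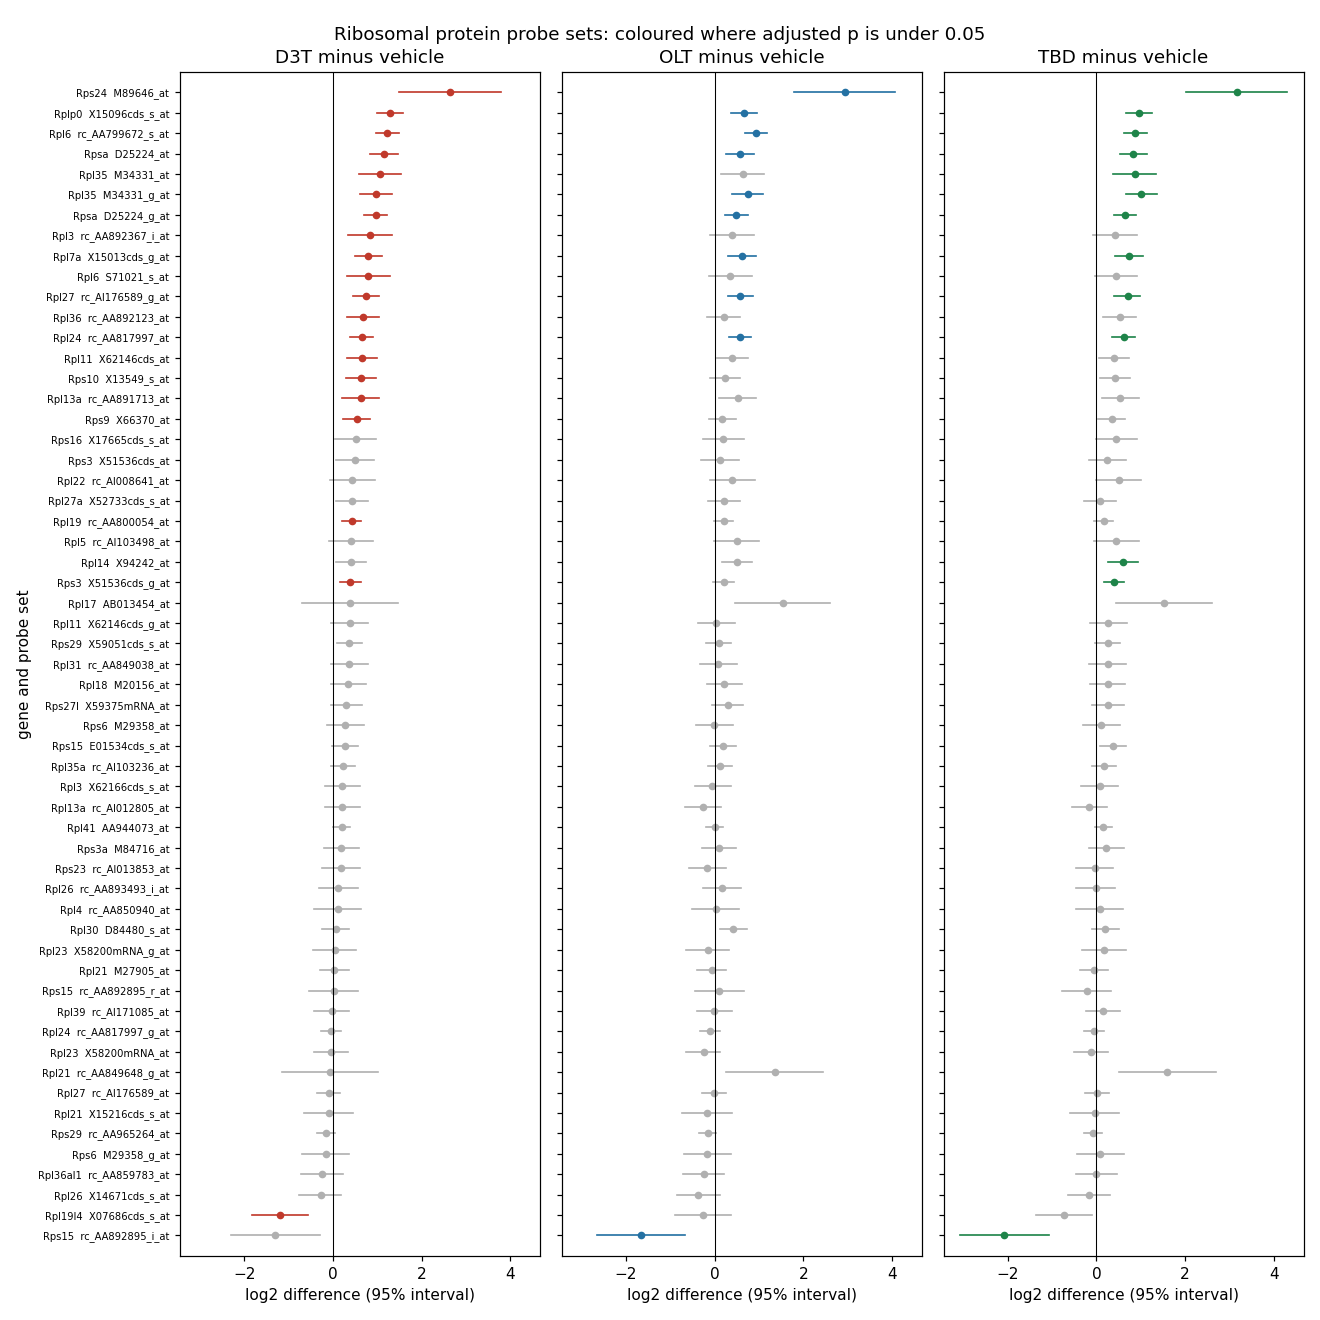
Log2 difference of each compound from vehicle for the 57 tested ribosomal protein probe sets (points, with 95% intervals as lines; 4 arrays a group), ordered by the D3T difference and coloured where the adjusted p is under 0.05. Most points lie to the right of 0, and Rps24 stands farthest right in every panel, at 2.63, 2.93 and 3.16.

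Rplp0, the base of the stalk on which elongation factors dock, had X15096cds_s_at as its only member probe set. The limit of the _s_at type is given below, and no other member probe set could be set beside it. Rplp0 read 11.20, 10.73, 11.25 and 11.35 in D3T livers, 10.69, 10.36, 10.51 and 10.47 in OLT livers and 10.58, 10.81, 10.93 and 10.91 in TBD livers, against 9.69, 9.66, 10.01 and 10.01 in vehicle livers. Every treated array lay above every vehicle array, and every D3T array lay above every OLT array. It rose by 1.29 ± 0.14 (log2, SE, 2.45-fold) with D3T at an adjusted p of 3.98e-05, by 0.66 with OLT at 0.00651 and by 0.97 with TBD at 0.000457. Rpl6, a large-subunit protein, read 10.90, 10.47, 10.59 and 10.82 in D3T livers, 10.56, 10.11, 10.41 and 10.51 in OLT livers and 10.14, 10.41, 10.31 and 10.48 in TBD livers, against 9.55, 9.52, 9.48 and 9.31 in vehicle livers on probe set rc_AA799672_s_at. No treated array overlapped the vehicle range, in which the 4 arrays lay close to each other. The rises were 1.23 ± 0.12 with D3T (adjusted p 1.96e-05), 0.94 with OLT (0.000319) and 0.87 with TBD (0.000345). The other Rpl6 probe set, S71021_s_at, rose by 0.80 with D3T (adjusted p 0.0223), and its differences of 0.35 with OLT and 0.44 with TBD did not pass the test. That D3T call ended without vehicle replicate 2 or D3T replicate 1, 3 or 4 (adjusted p 0.0526 to 0.0815).

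Rpl35, which lies beside the exit of the peptide tunnel, read 11.89, 11.85, 11.85 and 11.81 in D3T livers, 11.89, 11.28, 11.78 and 11.56 in OLT livers and 11.44, 12.14, 12.09 and 11.89 in TBD livers, against 11.03, 11.09, 10.52 and 10.88 in vehicle livers on M34331_g_at. The D3T arrays were nearly equal, while the second OLT and the first TBD array were the lowest of their groups. The rises were 0.97 with D3T (adjusted p 0.00106), 0.75 with OLT (0.00944) and 1.01 with TBD (0.00116). On its second probe set, M34331_at, Rpl35 rose by 1.06 with D3T (0.00476) and by 0.86 with TBD (0.0208), and the difference of 0.63 with OLT did not pass (0.0876). The TBD call on M34331_at ended with array medians centred (adjusted p 0.0686), with only the 8 arrays compared (0.0693), and without vehicle replicate 3 (0.0594), TBD replicate 2 (0.0699) or TBD replicate 3 (0.0569).

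Rpl7a, a large-subunit protein, read 12.08, 11.66, 11.88 and 12.03 in D3T livers, 11.96, 11.52, 11.76 and 11.67 in OLT livers and 11.38, 12.08, 11.87 and 12.07 in TBD livers, against 11.10, 11.12, 11.11 and 11.13 in vehicle livers. The vehicle arrays were almost identical and all treated arrays lay above them. The rises were 0.80 with D3T (adjusted p 0.0017), 0.61 with OLT (0.0137) and 0.73 with TBD (0.004). A probe set made from the same deposited sequence, X15013cds_at, carries 2 symbols, Rpl7a and Rsl1d1, and is not a member. It rose too, by 1.37 with D3T (adjusted p 0.000213), 1.09 with OLT (0.0018) and 1.13 with TBD (0.00114). In the comparison of probe sets made from 1 sequence, which was added after the values were seen, its rise exceeded that of the Rpl7a member by 0.57 with D3T (0.00943) and 0.48 with OLT (0.0379), and the gap of 0.39 with TBD did not pass (0.0782). The large-subunit members that rose and fall outside the rule for named probe sets were chosen after their values were seen, to account for every call: with D3T, Rpl36 by 0.67 (adjusted p 0.0132), Rpl11, which binds Mdm2 when free of the ribosome, by 0.65 on 1 of its 2 probe sets (0.0111) and Rpl19, which takes part in a bridge between the subunits, by 0.42 (0.011). The Rpl36 and Rpl19 calls ended with array medians centred (0.0524 and 0.0755). With TBD Rpl14 rose by 0.59 (0.0237), a call that ended in 9 of the 26 alternative settings, at 0.0501 to 0.0999: array medians centred, the replicate block, the 8 arrays compared, and without vehicle replicates 1, 2 or 4 or TBD replicates 2, 3 or 4.

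Rpsa, a small-subunit protein also known as the laminin receptor, read 10.46, 10.41, 10.35 and 10.33 in D3T livers, 9.97, 9.59, 9.66 and 10.02 in OLT livers and 9.60, 10.10, 10.39 and 10.19 in TBD livers, against 9.16, 9.42, 9.07 and 9.29 in vehicle livers on D25224_at. All treated arrays lay above the vehicle range, the D3T arrays close together and above every OLT array. The rises were 1.15 ± 0.15 with D3T (adjusted p 0.000155), 0.57 with OLT (0.0212) and 0.83 with TBD (0.00205). The second probe set, D25224_g_at, rose too, by 0.96 with D3T (0.000125), 0.49 with OLT (0.0143) and 0.64 with TBD (0.00248). Both OLT calls of Rpsa ended with array medians centred (adjusted p 0.097 and 0.0572), and that of D25224_at also ended when 1 array was left out, whether OLT replicate 1 (0.0554), OLT replicate 4 (0.0637) or vehicle replicate 3 (0.0584). Of the other small-subunit members, also named after their values were seen, Rps10 rose by 0.64 (adjusted p 0.0119) and Rps9 by 0.54 (0.0173) with D3T, and Rps3, which lines the mRNA entry channel, rose by 0.39 with D3T (0.0194) and by 0.39 with TBD (0.0257) on 1 of its 2 probe sets. All 4 calls ended with array medians centred, that of Rps9 also without vehicle replicate 3, and that of Rps3 with D3T also without D3T replicate 1 or 4. The TBD call of Rps3 ended in 7 of the 26 settings, at 0.0584 to 0.114, including the 8 arrays compared and the fits without vehicle replicate 1 or 2 or TBD replicate 3 or 4. Rps6, the substrate of the S6 kinases, passed no test on either probe set: M29358_at differed by 0.28 with D3T, -0.01 with OLT and 0.11 with TBD, and M29358_g_at by -0.16, -0.17 and 0.09.

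**Figure D2:**
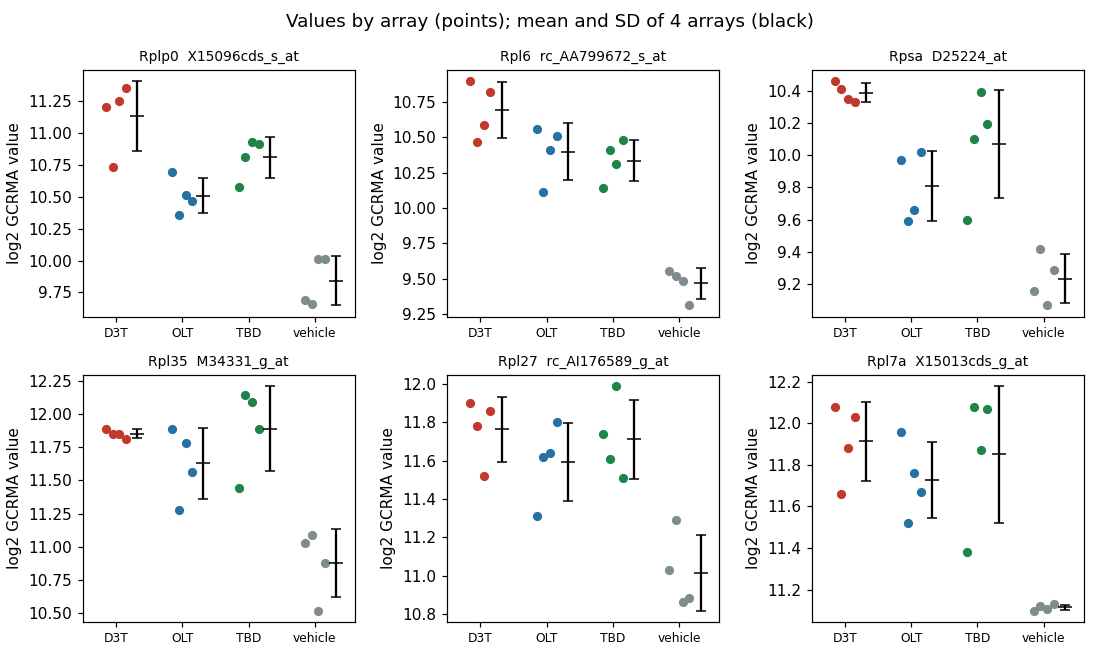
Log2 GCRMA values of 6 ribosomal protein probe sets by array (points) with the mean and SD of 4 arrays (black) for D3T, OLT, TBD and vehicle; each panel has its own scale, which does not start at 0. In each panel the 12 treated arrays lie above the 4 vehicle arrays, as for Rpl7a, where vehicle ran from 11.10 to 11.13.

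The probe sets of 1 gene did not always give the same call. Of the 15 genes with more than 1 tested probe set, 3 had all of them higher with D3T, 6 had some but not all higher and 6 had none called. With OLT these counts were 1, 4 and 9, and with TBD 2, 4 and 8. The same counts were not made over all genes, and a called and an uncalled probe set need not differ. The disagreement was tested within arrays, as the difference between each probe set and the gene's brightest one, for 17 pairs. Disagreement passed the test for 5 of the 17 pairs with D3T, against 24.7% of 1146 such pairs over all genes, for 6 with OLT against 11.6%, and for 5 with TBD against 12.4%. With D3T the members thus lay close to the share over all genes. Affymetrix marks with _s_at a probe set whose probes match several transcripts, and with _i_at and _r_at one with fewer or less selective probes. Ribosomal protein genes have many processed copies in the genome, so the transcripts that such probe sets detect are uncertain.

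Rps24, a small-subunit protein whose gene is mutated in some human Diamond-Blackfan anaemia, read 6.93, 6.88, 6.86 and 6.91 in D3T livers, 8.11, 6.30, 7.52 and 6.82 in OLT livers and 6.12, 8.43, 7.27 and 7.87 in TBD livers, against 4.92, 5.40, 3.38 and 3.35 in vehicle livers on M89646_at. All treated arrays lay above all vehicle arrays, the D3T arrays within a narrow span and the vehicle arrays in a high and a low pair. The low pair fell below the medians of their arrays, 3.46 and 3.39, where GCRMA values lie near background and a fold depends on the background model. The rises were 2.63 ± 0.53 (SE, 6.21-fold) with D3T at an adjusted p of 0.00343, 2.93 (7.61-fold) with OLT at 0.00279 and 3.16 (8.94-fold) with TBD at 0.00146, the largest of any member in each comparison.

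A second probe set made from the same deposited sequence as M89646_at, M89646_g_at, carries several symbols and so is not a member. It read 11.31, 11.27, 11.42 and 11.25 in D3T livers, 11.42, 10.67, 11.36 and 11.17 in OLT livers and 10.50, 11.61, 11.36 and 11.92 in TBD livers, against 11.03, 11.24, 10.86 and 11.46 in vehicle livers. All 4 groups overlapped on it. Its differences were 0.16 with D3T (95% interval -0.37 to 0.69), 0.01 with OLT (-0.52 to 0.54) and 0.20 with TBD (-0.33 to 0.73), so the intervals end well short of the rises of M89646_at. In the same added comparison, over 455 pairs of probe sets made from 1 sequence, the rise on M89646_at exceeded that on its partner by 2.47 ± 0.43 with D3T (adjusted p 0.00171), 2.92 with OLT (0.00138) and 2.96 with TBD (0.00117). Of those 455 pairs, 22.6% disagreed with D3T, 11.9% with OLT and 11.4% with TBD. Which of the probe sets follows Rps24 mRNA was not tested.

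Rps15, which lies at the head of the small subunit, read 7.65, 7.73, 7.61 and 7.46 in D3T livers, 6.62, 7.64, 6.64 and 8.13 in OLT livers and 7.61, 5.83, 7.68 and 6.22 in TBD livers, against 8.12, 9.55, 8.40 and 9.60 in vehicle livers on rc_AA892895_i_at. D3T and TBD arrays lay below all vehicle arrays, and the highest OLT array just exceeded the lowest vehicle array. This probe set fell by 2.08 with TBD (adjusted p 0.00873) and by 1.66 with OLT (0.0326), and its difference of -1.30 with D3T did not pass (0.0675). The TBD call ended with only the 8 arrays compared (adjusted p 0.0529), and the OLT call ended in 10 of the 26 alternative settings, at adjusted p 0.0521 to 0.111. These include the fits without vehicle replicate 2 (0.111), vehicle replicate 4 (0.103), OLT replicate 1 (0.0859) and OLT replicate 3 (0.0981).

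The other Rps15 probe sets did not follow it. E01534cds_s_at differed by 0.28 with D3T, 0.18 with OLT and 0.38 with TBD, and rc_AA892895_r_at by 0.02, 0.10 and -0.22, none past the test. The gap between the responses of the i_at probe set and E01534cds_s_at passed with D3T (-1.58, adjusted p 0.0255), OLT (-1.84, 0.0249) and TBD (-2.46, 0.00477).

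Rpl27 and Rpl24, both large-subunit proteins, each had 1 probe set that rose with every compound and 1 whose differences did not pass, and the IDs of each pair name 1 deposited sequence. Rpl27 on rc_AI176589_g_at read 11.90, 11.78, 11.52 and 11.86 in D3T livers, 11.31, 11.62, 11.64 and 11.80 in OLT livers and 11.74, 11.61, 11.99 and 11.51 in TBD livers, against 11.03, 11.29, 10.86 and 10.88 in vehicle livers. Its rises were 0.75 (adjusted p 0.0017), 0.58 (0.0134) and 0.70 (0.00377) with D3T, OLT and TBD. On rc_AI176589_at the differences were -0.10, -0.01 and 0.01, and the response of the at probe set was lower than that of the g_at one by log2 differences of -0.85 (0.00149), -0.59 (0.0163) and -0.68 (0.00594).

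Rpl24, which forms a bridge between the subunits, read 10.46, 10.49, 10.45 and 10.34 in D3T livers, 10.54, 10.21, 10.28 and 10.43 in OLT livers and 10.14, 10.47, 10.67 and 10.31 in TBD livers, against 9.70, 9.65, 9.77 and 10.04 in vehicle livers on rc_AA817997_at. All treated arrays lay above all vehicle arrays on it. Its rises were 0.65 (adjusted p 0.0017), 0.57 (0.00583) and 0.61 (0.00338). On rc_AA817997_g_at all groups overlapped, with differences of -0.04, -0.11 and -0.06, and the at probe set exceeded it by 0.69 (0.00579), 0.68 (0.0131) and 0.66 (0.0135).

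**Figure D3:**
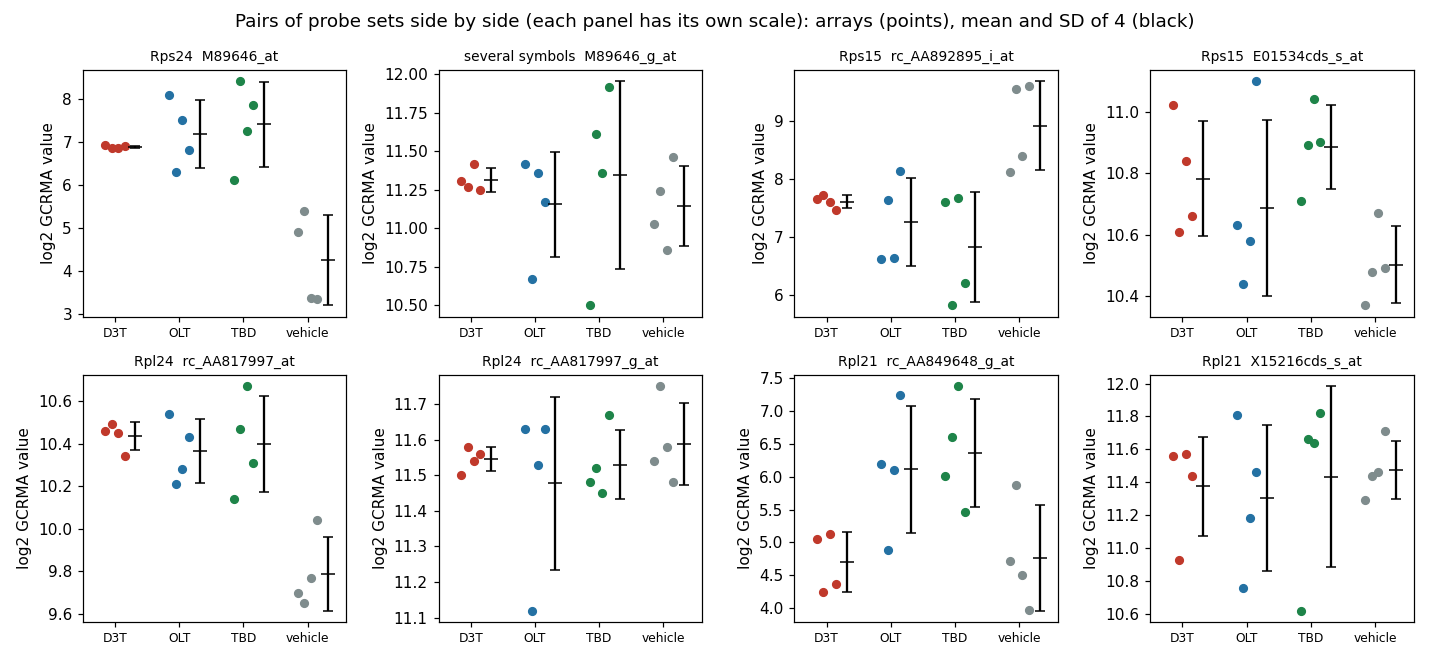
Log2 GCRMA values by array (points) with the mean and SD of 4 arrays (black) for 4 pairs of probe sets shown side by side, each panel on its own scale, which does not start at 0. M89646_at of Rps24 separates treated from vehicle arrays while its partner, at 10.50 to 11.92, does not, and rc_AA892895_i_at of Rps15 lies below the vehicle range on all treated arrays but 1, while E01534cds_s_at does not.

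Disagreements that passed in 1 or 2 of the 3 comparisons were found in 5 further genes. Rpl3, near the peptidyl transferase centre, rose by 0.83 with D3T on rc_AA892367_i_at (adjusted p 0.0228), and X62166cds_s_at differed by 0.21, a gap that passed with D3T (-0.62, 0.00576) and OLT (-0.44, 0.0454). The Rpl3 rise ended with array medians centred (adjusted p 0.0707) and without vehicle replicate 1 (0.0508), vehicle replicate 4 (0.0503) or D3T replicate 1 (0.0665). Rpl13a, also part of a translational silencing complex in human monocytes, rose by 0.63 with D3T on rc_AA891713_at (0.0406), and rc_AI012805_at differed by 0.21. The Rpl13a gap passed with OLT (0.78, 0.0311) and TBD (0.71, 0.0442). Its D3T rise was marginal, since 12 of the 26 alternative settings ended it at adjusted p 0.0507 to 0.096, including the replicate block (0.0772) and the fits without vehicle replicates 1, 2, 3 or 4, D3T replicates 1, 2 or 3, or TBD replicate 2.

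Rps29, a small-subunit protein, differed by 0.37 with D3T on X59051cds_s_at and by -0.15 on rc_AA965264_at, and the gap of 0.53 passed (adjusted p 0.0215) although neither probe set did. Rpl26, which binds the p53 mRNA in human cells, had a gap of -0.53 with OLT (0.0376), again with neither probe set called. Rpl21, a large-subunit protein, read 5.05, 4.25, 5.13 and 4.36 in D3T livers, 6.20, 4.89, 6.11 and 7.25 in OLT livers and 6.01, 6.60, 7.38 and 5.47 in TBD livers, against 4.72, 5.88, 4.50 and 3.97 in vehicle livers on rc_AA849648_g_at. D3T and vehicle arrays shared a range, while most OLT and TBD arrays were above it. The differences were -0.07 with D3T, 1.35 with OLT (adjusted p 0.112) and 1.60 with TBD (0.0527), none past the test. The bright Rpl21 probe sets X15216cds_s_at and M27905_at differed by -0.10 and 0.03 with D3T, -0.17 and -0.07 with OLT and -0.04 and -0.05 with TBD. The gap to X15216cds_s_at passed with TBD (1.64, 0.0469) and not with OLT (1.52, 0.0656).

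**Figure D4:**
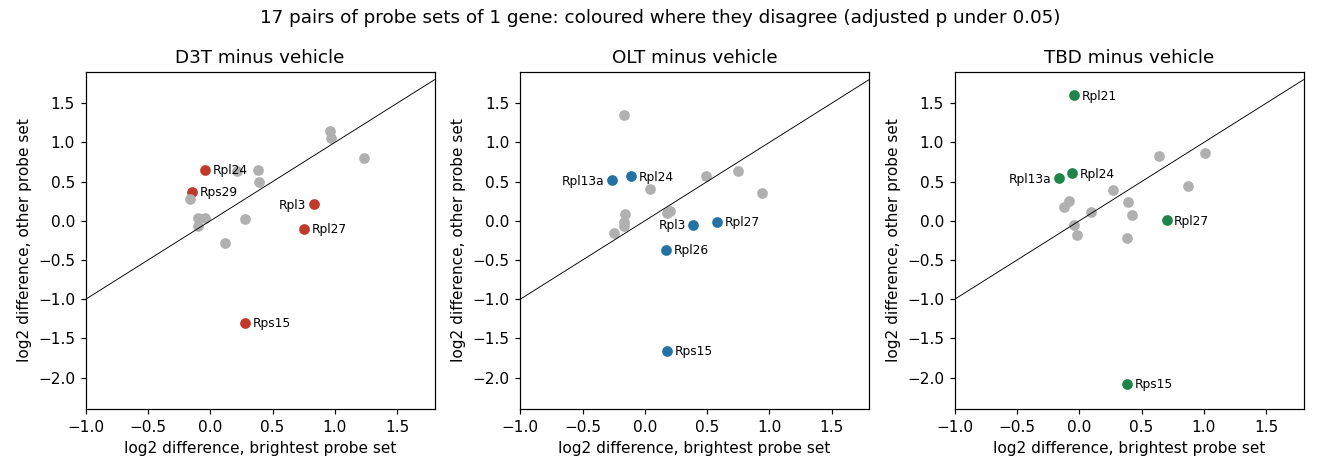
Log2 difference from vehicle of a gene's other probe set (vertical axis) against that of its brightest probe set (horizontal axis) for 17 pairs, with the line of equality; points are coloured and named where the pair disagrees at an adjusted p under 0.05. Rps15 lies far below the line in each panel, at vertical values of -1.30, -1.66 and -2.08, and Rpl21 far above it with TBD, at 1.60.

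Rpl19l4, named by the platform as a Rpl19-like gene, was the member that fell with D3T. Its probe set X07686cds_s_at read 8.69, 7.67, 8.81 and 8.23 in D3T livers, 9.47, 9.12, 9.45 and 9.09 in OLT livers and 8.60, 9.45, 8.74 and 8.44 in TBD livers, against 9.89, 9.79, 9.79 and 8.73 in vehicle livers. The last vehicle array lay far below the other 3, inside the D3T range. It fell by 1.20 with D3T (adjusted p 0.0109), a call that ended after repeated quantile normalization (adjusted p 0.0549), and its differences of -0.27 with OLT and -0.74 with TBD did not pass.

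The shift of the members varied between animals. The median over the 57 members, set against the vehicle mean, was 0.40, 0.34, 0.33 and 0.30 on the D3T arrays, 0.34, -0.07, 0.17 and 0.35 on the OLT arrays and -0.08, 0.32, 0.40 and 0.49 on the TBD arrays, against -0.08, 0.05, -0.04 and 0.11 on the vehicle arrays. The second OLT and the first TBD array thus lay within the vehicle range and all D3T arrays above it. The same 2 arrays were the lowest of their groups for Rpl35, Rpl7a and the Rps24 probe sets. Over all 5323 probe sets tested the array medians ran from -0.02 to 0.09 in D3T livers, from -0.15 to 0.09 in OLT livers and from -0.11 to 0.02 in TBD livers, against -0.12 to 0.10 in vehicle livers. Without OLT replicate 2, 14 members rose with OLT in place of 9, and 3.17% of all probe sets tested rose in place of 3.38%. That array was picked for its low member median, so this count is not an independent result. Without OLT replicates 1, 3 or 4 the counts were 8, 9 and 8, against 3.02%, 2.95% and 2.57% of all probe sets tested.

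**Figure D5:**
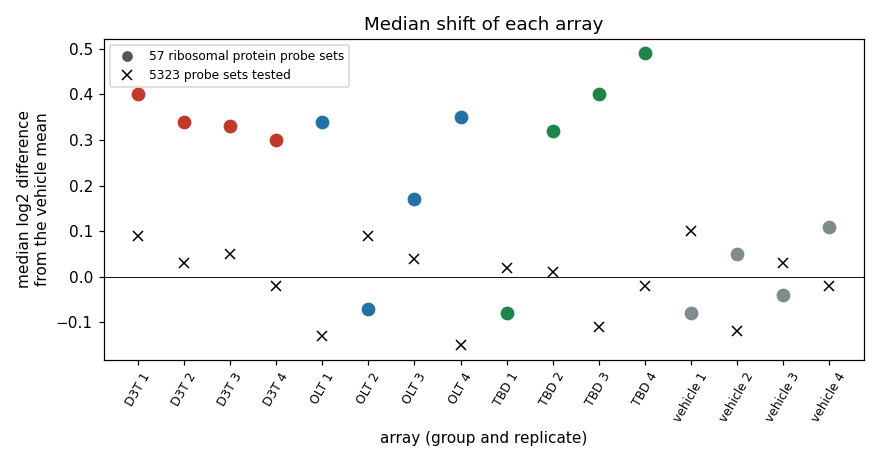
Median log2 difference from the vehicle mean on each of the 16 arrays, over the 57 ribosomal protein probe sets (filled points) and over the 5323 probe sets tested (crosses). The 4 D3T arrays lie between 0.30 and 0.40, while OLT 2 and TBD 1, at -0.07 and -0.08, lie within the vehicle range.

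The compounds were also compared with each other, in 3 pairs at the matched dose of 0.3 mmol/kg, with p-values adjusted over all 5323 probe sets within each pair and not across pairs. Unsubstituted D3T differed from OLT, which carries the methyl and pyrazinyl groups, on 1 of 57 members, against 0.395% of all probe sets higher and 0.676% lower. That member was Rplp0 on X15096cds_s_at, which averaged 11.14 in D3T livers and 10.51 in OLT livers, a difference of 0.63 ± 0.14 (95% interval 0.33 to 0.92, adjusted p 0.044). The call was not stable: it ended in 15 of the 26 alternative settings, at adjusted p 0.0518 to 0.153, among them array medians centred (0.55, 0.153), no filter (0.0597), the intensity trend (0.0769) and the fit with only the 8 arrays compared (0.0959). It also ended without vehicle replicate 1, 3 or 4, D3T replicate 1, 3 or 4, OLT replicate 2, 3 or 4, or TBD replicate 2 or 3. The probe sets of Rpsa differed by 0.58 (0.26 to 0.89) and 0.46 (0.21 to 0.72) between D3T and OLT and did not pass (adjusted p 0.0942 and 0.0912), although no D3T array overlapped an OLT array on either. Rps24 differed by -0.29 (-1.44 to 0.85).

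TBD against OLT gave 0 calls among the members in limma, against 0.0564% of all probe sets called in either direction. D3T against TBD gave 0 calls, against 0.658% of all called. Members at an unadjusted p under 0.05 numbered 1 for TBD against OLT, 8 for D3T against TBD and 14 for D3T against OLT. The share of all probe sets at that unadjusted p was not set beside these counts. They are therefore not a result about the members, and the shares at adjusted p do not compare with them. Of the 57 members, 46 were higher in D3T than in OLT livers with a median of 0.18, where the median of all tested probe sets was 0.07. TBD exceeded OLT on 45 members, at a median of 0.12 against 0.01 for all tested, and D3T exceeded TBD on 38, at a median of 0.06 for members and for all tested. The 95% interval of a member reached a median of 0.39 to either side, so differences of that size between compounds were not resolved, and a p that misses the threshold does not show that the compounds act alike. Rpl21 on rc_AA849648_g_at had the largest difference among members, -1.67 (-2.76 to -0.58) for D3T against TBD, with no overlap and an adjusted p of 0.218.

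Outside the member rule, 40 probe sets with several symbols included a ribosomal protein symbol. X15013cds_at, described above, is among them, and its rises are counted again here. All were tested, and 16 rose with D3T, 9 with OLT and 11 with TBD, with none lower. Of all probe sets tested, 6.18%, 3.38% and 3.55% rose and 12.2%, 7.89% and 9.47% fell with D3T, OLT and TBD. Their median differences were 0.40, 0.24 and 0.32.

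Related gene lists, chosen with earlier results of these data known, are given as counts, to be read against the shares of all probe sets that rose (6.18%, 3.38% and 3.55% with D3T, OLT and TBD) or fell (12.2%, 7.89% and 9.47%). Of 7 elongation factors and other genes with terminal oligopyrimidine mRNAs or ribosome partners, 2 rose with D3T, 1 with OLT and 1 with TBD, and 1 fell with OLT. Eef2, which moves the ribosome along the mRNA, rose by 0.65 with D3T (adjusted p 0.000618), 0.44 with OLT (0.012) and 0.42 with TBD (0.0137). Rack1, a scaffold on the small subunit, averaged 10.55 in D3T livers and 9.38 in vehicle livers and rose by 1.17 with D3T (0.000942), and its differences of 0.42 with OLT and 0.60 with TBD did not pass.

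None of the 21 initiation factors rose, and 3 fell with D3T, 2 with OLT and 1 with TBD. Eif4e, which binds the mRNA cap, fell by 1.14 with D3T (adjusted p 0.0136) and by 0.96 with OLT (0.0477), and Eif4a2, a helicase of the same complex, fell by 0.94 with OLT (0.0326) and by 0.91 with TBD (0.0355). None of 10 tested ribosome biogenesis genes rose, and 1 fell with D3T, 3 with OLT and 3 with TBD. Ddx21, a nucleolar helicase of ribosomal RNA synthesis, fell with each compound, by log2 differences of -1.61 with D3T (0.0101), -1.65 with OLT (0.0134) and -1.41 with TBD (0.0267). Of 13 mTOR and MYC regulators none rose and 4, 2 and 2 fell, including Rps6kb1, the S6 kinase that phosphorylates Rps6, at log2 differences of -1.38 (0.00186), -1.12 (0.0111) and -1.24 (0.00525). Eif4e is in this list as well as among the initiation factors, so its falls with D3T and OLT count in both. Levels were low: treated means were 4.14 to 4.39 for Ddx21, 4.17 to 4.43 for Rps6kb1 and 4.69 to 5.06 for Eif4e. The vehicle means were 5.79, 5.55 and 5.83, and array medians ran from 3.27 to 3.58. GCRMA folds near background depend on the background model.

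The 14 mitochondrial ribosomal proteins, which serve a separate ribosome, had no call in limma with any compound, and medians of 0.04 with D3T, 0.10 with OLT and 0.07 with TBD. The 7 signal recognition and translocon genes had no call either, with medians of -0.37, -0.03 and -0.09.

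The arrays read as liver: Alb lay between 15.34 and 15.94 on all 16, and the 11 hepatocyte markers were all tested. Markers of other cell types moved as well. Of 7 macrophage markers 4 fell with each compound, and their summed linear level ran from 1546 to 1916 in D3T livers, from 1527 to 2269 in OLT livers and from 1661 to 2314 in TBD livers, against 2644 to 3765 in vehicle livers. Of 4 stellate and fibroblast markers 2 fell with D3T, 1 with OLT and 2 with TBD, and of 4 endothelial markers 1, 0 and 1. The 6 lymphocyte markers had no call, with sums of 88 to 104 in D3T livers, 75 to 95 in OLT livers, 84 to 124 in TBD livers and 87 to 97 in vehicle livers. Hepatocyte markers summed to 177399 to 190087 in D3T livers, 145352 to 179045 in OLT livers and 157578 to 180820 in TBD livers, against 155161 to 168305 in vehicle livers, with 3 markers higher and 1 lower with D3T and 0 higher and 1 lower with OLT and with TBD. The single tested marker of red blood cells and of cholangiocytes did not pass in any comparison. The part of these shifts in the ribosomal protein differences was not tested. In bulk tissue, fewer cells of a type and less RNA per cell cannot be told apart.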

How the data were processed

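The authors deposited log2 expression values for 8740 probe sets on 16 one-colour Affymetrix arrays, computed by GCRMA, per the submitters' processing notes, in a version not given in the sources used here. Values ran from -1.21 to 15.94, with array medians of 3.27 to 3.58, and were used as deposited. The number of arrays limits the precision, since these files hold no counts. Gene symbols came from the platform annotation: 7006 probe sets had 1 symbol, 308 several and 1426 none.

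A probe set was tested if it exceeded the 40th percentile of its array on at least 4 of 16 arrays (5323 did). One limma 3.58.1 model in R 4.3.3 held all 4 groups (12 residual and 2.41 prior degrees of freedom), and p-values were Benjamini-Hochberg adjusted over 5323 probe sets in each of 6 comparisons. Disagreement within a gene was fitted to within-array differences from the gene's brightest probe set. The fits were tested on simulated data, but the setting and outcome are not given here, so no result rests on that. Named probe sets are the 8 largest called differences per compound, the 3 largest per pair of compounds, up to 8 genes with the largest disagreement, and all of Rps24, Rplp0, Rpsa and Rps6; named genes of the related lists are up to 3 called ones per list. Alternatives covered scaling, filter, weights, replicate block and leaving out arrays. Members and lists were chosen with earlier results of these data known. Promoter windows came from RefSeq (GRCr8). Figures were drawn with matplotlib 3.10.9.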

Additional observations from a re-analysis of the deposited data

Results flagged for a closer look

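Dixon's test at the 95% level marked 1 array as far from the other 3 in 4 of 116 groups of 4 arrays, where chance marks about 5% of groups. Rpl13a (rc_AA891713_at) read 7.75 on D3T replicate 4, with the other D3T arrays at 8.12 to 8.18. Rpl21 (X15216cds_s_at) read 10.62 on TBD replicate 1, with the others at 11.64 to 11.82. Rpl19l4 read 8.73 on vehicle replicate 4, with the others at 9.79 to 9.89, and Rps29 (X59051cds_s_at) read 11.28 on vehicle replicate 2, with the others at 11.77 to 11.84. Rplp0 differed between compounds, by 0.63 for D3T against OLT (limma, adjusted p 0.044). The 40 ribosomal protein probe sets with several symbols, which are not members, gave 16 higher with D3T, 9 with OLT and 11 with TBD. Of all probe sets tested, 6.18%, 3.38% and 3.55% were higher.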

How the results depend on the processing

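The 35 named calls were refitted under 26 alternatives: of 910 values, 856 kept their call and direction, 54 lost the call and 0 turned, and 26 calls held under all 26. Members higher numbered 12 with D3T after centring array medians, where 9.64% of all probe sets were higher. Repeated quantile normalization gave 15 with OLT (5.60% of all) and 20 with TBD (5.86%). Array weights gave 35, 18 and 24 with D3T, OLT and TBD, with 23.0%, 6.95% and 9.43% of all probe sets higher in place of 6.18%, 3.38% and 3.55%. Leaving out 1 array at a time gave 15 to 21 with D3T, where 4.41% to 8.08% of all probe sets were higher. It gave 8 to 14 with OLT (2.57% to 4.0% of all) and 9 to 17 with TBD (2.69% to 4.45% of all). In every such fit 15 of 20 D3T calls, 8 of 10 OLT calls and 10 of 13 TBD calls held. In all 3 scalings 12, 7 and 10 of them held. Members lower numbered 2 with D3T under array weights or with 8 arrays (1 to 2 without 1 array). They numbered 0 with OLT under quantile normalization, centring, no filter, the replicate block, 8 arrays, or without OLT replicate 1 and TBD replicate 4 (0 to 1 without 1 array). With TBD they numbered 2 under array weights and 0 with 8 arrays (1 to 2 without 1 array). The shares of all probe sets lower in these fits were not set beside these counts. D3T against OLT gave 3 calls under quantile normalization, 5 under array weights and 4 with the 40th percentile as covariate. Calls over all probe sets then numbered 92, 171 and 149, in place of 57. It gave 0 after centring, with no filter, with 8 arrays or with an intensity trend, where 46, 45, 42 and 47 of all were called. Without 1 array it gave 0 to 3, with 30 to 84 of all called. D3T against TBD gave 1 under array weights, where 152 of all were called in place of 35, and TBD against OLT 0 under each. Median differences without 1 array were 0.30 to 0.37 with D3T, 0.12 to 0.26 with OLT and 0.19 to 0.41 with TBD. Disagreeing pairs numbered 3 with TBD with no filter, where 148 pairs of all genes disagreed. Without 1 array they numbered 4 to 7 with D3T, 1 to 7 with OLT and 3 to 5 with TBD. Of the 1146 pairs of all genes, 175 to 291, 55 to 147 and 87 to 184 disagreed in those fits. The cause was not tested. Same-numbered arrays correlated at -0.52 to 0.32 in their deviations from the group means. Differently numbered arrays were not set beside them, so this does not settle whether the numbers pair the animals. The replicate block left 18, 9 and 11 members higher with D3T, OLT and TBD, where 5.43%, 2.93% and 3.36% of all probe sets were higher. It ended the Rpl13a, OLT Rps15 and TBD Rpl14 calls.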
